A study of Homo sapiens with 20 samples.

Results

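RNA from WT cells of Jurkat, an established line of human T cell leukemia, was compared between 6 h and 1 h of culture. The members of the comparison were chosen by their labels as the 3 libraries of 6 h and the 3 libraries of 1 h, which are 6 of the 20 libraries of the study. At each time, 1 library represented activation on plates coated with anti-CD3 plus anti-CD28 (CD3+CD28), 1 the same activation with added thrombospondin-1 (CD3+CD28+TSP1), and 1 treatment with TSP1 only, so that the times formed 3 pairs matched for treatment. Thrombospondin-1 is a secreted matrix protein and a ligand of the receptor CD47. All cells were kept in HITES, a serum-free medium that contains insulin, transferrin, selenite and hydrocortisone. The study also holds libraries of 3 h, a parallel set from the CD47- mutant line JinB8, and 1 untreated library of 1 h per line. Untreated cells of 3 h and 6 h were not analysed here, so the duration of treatment and the time in medium and on the plate cannot be told apart. Each condition was sequenced once, and the labels do not say whether the libraries came from separate cultures. The 3 libraries of a time are therefore different treatments. The p-values rest on a spread estimated over the 18 treated libraries of both lines and all times. Only treatment differences that stay constant over time within a line are removed from it. This spread holds treatment effects that change with time and does not measure replicates of a condition.

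Values are CPM, the usual scaling of counts to the library total, with totals adjusted by TMM factors, and values of 3 libraries are given in the order CD3+CD28, CD3+CD28+TSP1, TSP1 alone. The 6 libraries held between 23649002 and 31737616 counts. With these unadjusted totals, 3 counts, taken as the limit of detection, correspond to 0.0945 to 0.127 CPM. The TMM factors of the 6 libraries were 0.882 to 0.990, so the limit is somewhat higher on the adjusted scale. Fold changes are 6 h relative to 1 h. They come from an edgeR quasi-likelihood model of 18 libraries, with p-values adjusted by the Benjamini-Hochberg method over 18263 genes, and a gene was called at an adjusted p under 0.05. Some properties of the libraries moved with time. Transcripts of mitochondrial DNA made up 0.584 to 0.635% of counts at 1 h and 0.380 to 0.423% at 6 h. Replication-dependent histone genes made up 1.16 to 1.72% at 1 h and 1.85 to 2.08% at 6 h, and cytosolic ribosomal protein genes 8.22 to 8.79% and 7.21 to 7.39%. The part of these shares in the results was not tested.

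T cell receptor ligation turns on immediate early genes, which need no new protein synthesis and encode transcription factors such as FOS and EGR1 together with the phosphatases and mRNA decay factors that switch them off again. Cells that prepare to grow make more rRNA and ribosome assembly factors under the control of MYC. The unfolded protein response raises the chaperones of the endoplasmic reticulum (ER) when folding demand exceeds capacity, and the transcription factor ATF4 raises amino acid synthesis, amino acid import and tRNA charging genes when amino acids are short or the ER is stressed.

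The change from 1 h to 6 h was broad. Of 18263 genes tested, 4271 (23.4%) were higher at 6 h and 4051 (22.2%) were lower. Of these, 1058 (5.79% of genes tested) were higher by over 2-fold and 1143 (6.26%) were lower by over 2-fold. The direction was the same in all 3 treatment pairs for 4252 of the genes called higher and 4021 of those called lower. Levels of the 3 libraries of 6 h did not overlap those of the 3 libraries of 1 h for 58.0% of genes tested. The median log2 fold change over all genes was -0.0054. Among called genes with a mean log2 CPM of 3 or more in the 6 libraries, the 12 largest decreases were almost all of immediate early genes and their feedback regulators, and the 12 largest increases included SDF2L1 and MANF of the ER beside genes of varied function.

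**Figure D1:**
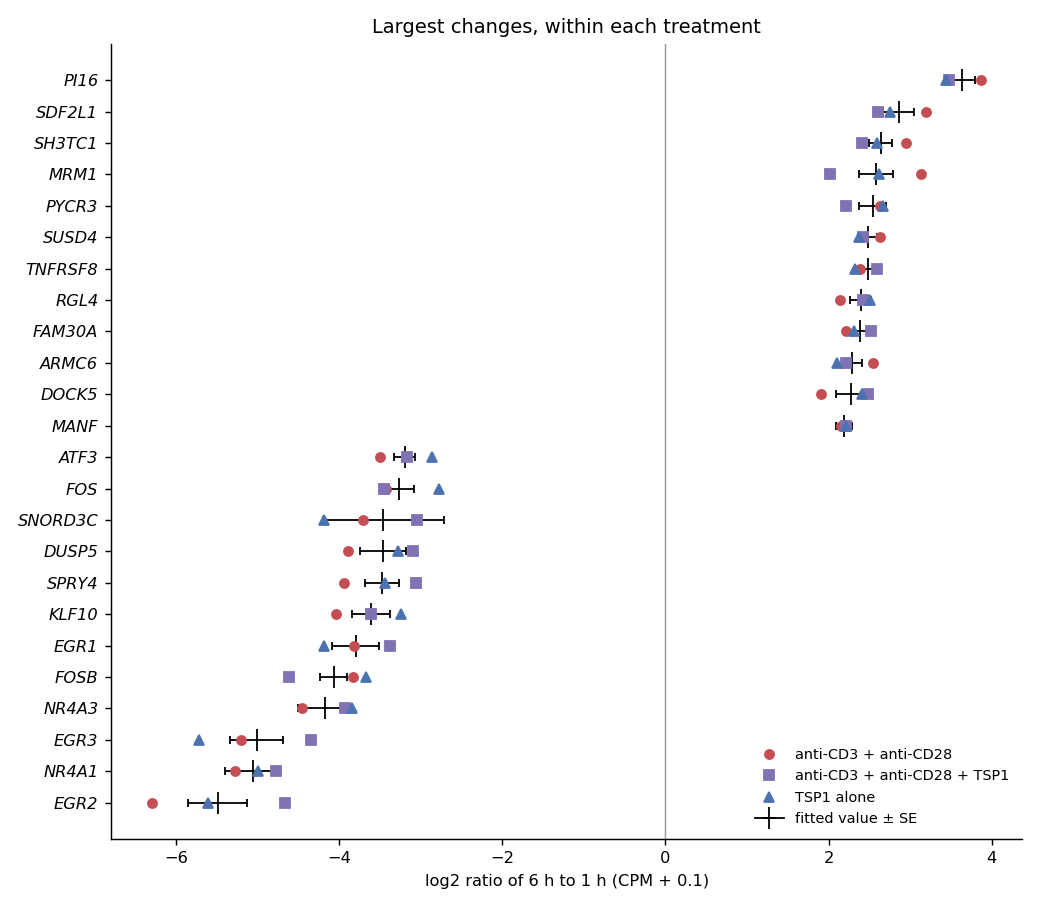
Log2 ratio of 6 h to 1 h (CPM with 0.1 added) in each treatment for the 12 genes with the largest increases and the 12 with the largest decreases among called genes whose mean log2 CPM over the 6 libraries was 3 or more, with the fitted value and its standard error in black. Genes were also required to have the same direction in the 3 pairs, so all points of a gene lie on 1 side of 0 by this choice, from EGR2 at a fitted value of -5.49 to PI16 at 3.63.

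EGR2 had the largest decrease among the genes open to the naming rule. EGR2 (chr10:62811996-62819167, minus strand, GRCh38) encodes a zinc finger transcription factor of activated T cells. It stood at 104, 102 and 41.6 CPM at 1 h, at 28.0, 25.4 and 3.57 CPM at 3 h and at 1.23, 3.91 and 0.757 CPM at 6 h. Both activated libraries exceeded the TSP1 library at each time, but the highest value of 6 h was far below the lowest of 1 h. The decrease was 45.0-fold (log2 fold change -5.49, SE 0.36, edgeR adjusted p = 3.48e-08), and the log2 fold change became -6.18 without the 6 h library of CD3+CD28+TSP1. The untreated library of 1 h held 37.0 CPM. The related EGR3 went from 42.3, 56.5 and 24.1 CPM to 1.05, 2.70 and 0.359 CPM (log2 fold change -5.01, SE 0.32, edgeR adjusted p = 3.23e-08), with a log2 fold change of -5.66 without the same library. EGR1 went from 155, 183 and 65.9 CPM to 10.9, 17.5 and 3.55 CPM (log2 fold change -3.80, SE 0.29, edgeR adjusted p = 1.31e-07), with 75.2 CPM in untreated cells at 1 h.

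The nuclear receptors of the NR4A family, which mark antigen receptor signaling, fell in parallel. NR4A1 fell from 384, 476 and 205 CPM to 9.81, 17.2 and 6.34 CPM (log2 fold change -5.06, SE 0.34, edgeR adjusted p = 4.38e-08). NR4A3 fell from 28.1, 30.2 and 17.3 CPM to 1.183, 1.89 and 1.12 CPM (log2 fold change -4.17, SE 0.33, edgeR adjusted p = 1.95e-07). No library of 6 h reached the lowest library of 1 h for either gene. Among the AP-1 subunits, FOSB (chr19:45467995-45475179, plus strand) was at 89.8, 113 and 67.5 CPM at 1 h, at 11.7, 10.2 and 7.48 CPM at 3 h and at 6.22, 4.53 and 5.22 CPM at 6 h (log2 fold change -4.07, SE 0.17, edgeR adjusted p = 9.53e-10). Most of this decrease had occurred by 3 h, and untreated cells of 1 h held 74.1 CPM, within the range of the treated libraries. FOS fell from 82.9, 96.1 and 35.4 CPM to 7.62, 8.69 and 5.06 CPM (log2 fold change -3.26, SE 0.18, edgeR adjusted p = 6.09e-09) and FOSL2 from 39.3, 45.0 and 28.3 CPM to 6.27, 6.64 and 7.33 CPM (log2 fold change -2.45, SE 0.13, edgeR adjusted p = 5.8e-09). ATF3, a stress-inducible partner of AP-1 factors, fell from 70.0, 64.0 and 48.4 CPM to 6.09, 7.03 and 6.58 CPM (log2 fold change -3.20, SE 0.12, edgeR adjusted p = 6.66e-10), and KLF10, a repressor induced by TGF-β, from 489, 435 and 259 CPM to 29.6, 35.5 and 27.3 CPM (log2 fold change -3.61, SE 0.23, edgeR adjusted p = 2.84e-08).

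All 21 immediate early transcription factors listed were tested. At 6 h, 19 were lower and 2 higher, against 22.2% and 23.4% of all genes. The median log2 fold change of the list was -2.45, against -0.0054 over all genes tested. It became -2.92 without the 6 h library of TSP1 alone, and -3.20 over the 19 members tested in a fit of the 6 WT libraries alone. Within the pairs the median was -2.63 with CD3+CD28, -2.74 with CD3+CD28+TSP1 and -1.93 with TSP1 alone. The libraries of the 2 times did not overlap for any of the 21, against 58.0% of all genes. Against 1 h, 16 of the 21 were already called lower at 3 h and 0 higher, where 15.3% of all genes tested were called lower and 14.9% higher. The 3 h comparison uses the same 1 h libraries. The summed level of the list was 1140 to 2110 CPM at 1 h and 316 to 359 CPM at 6 h. The exceptions were MYC and KLF2. KLF2, a quiescence factor of T cells named after its values were seen, went from 1.68, 2.76 and 2.22 CPM to 3.59, 2.93 and 3.31 CPM (log2 fold change 0.56, edgeR adjusted p = 0.0375), and its call was lost under 10 of 28 other analyses, with adjusted p-values from 0.0525 to 0.281. Its log2 fold change was 0.299 without the 1 h library of CD3+CD28.

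CArG boxes, the sites of serum response factor, were searched by name on both strands in RefSeq promoter windows from 250 bases before to 50 after each start (GRCh38.p14). They were found in 3 of 16 listed genes with a window, namely EGR1, EGR2 and SRF, and in 1.58% of 11339 tested genes with a window. A match describes the letters of this window only. The EGR1 promoter is shown because it held the motif at 2 positions, 95 and 73 bases before the start, within chr5:138465354-138465403 and chr5:138465376-138465425 on the plus strand. The capitals mark the CArG box.
EGR1 distal: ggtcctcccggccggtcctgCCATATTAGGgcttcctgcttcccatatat
EGR1 proximal: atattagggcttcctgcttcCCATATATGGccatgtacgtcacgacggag

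The feedback regulators of ERK signaling and of mRNA stability were also lower at 6 h. Of 25 listed and tested, 21 were lower and 2 higher, against 22.2% and 23.4% of all genes, with a median log2 fold change of -1.50. SPRY4, an inhibitor of receptor signaling to RAS, fell from 53.1, 56.2 and 28.7 CPM to 3.37, 6.68 and 2.55 CPM (log2 fold change -3.48, SE 0.21, edgeR adjusted p = 1.65e-08). DUSP5, a nuclear phosphatase of ERK, was at 128, 105 and 52.4 CPM at 1 h, at 201, 193 and 35.5 CPM at 3 h and at 8.54, 12.1 and 5.30 CPM at 6 h (log2 fold change -3.47, SE 0.28, edgeR adjusted p = 2.35e-07). DUSP10, which acts on JNK and p38, fell from 19.3, 20.1 and 16.2 CPM to 7.01, 7.23 and 5.50 CPM (log2 fold change -1.50, SE 0.093, edgeR adjusted p = 2.26e-08). PPP1R15A, the phosphatase subunit that restores translation after eIF2α phosphorylation, fell from 200.4, 207 and 160.3 CPM to 53.3, 58.5 and 47.9 CPM (log2 fold change -1.82, SE 0.088, edgeR adjusted p = 2.93e-09). CSRNP1 fell from 147, 154 and 72.3 CPM to 15.99, 18.4 and 13.03 CPM (log2 fold change -2.91, SE 0.18, edgeR adjusted p = 2.16e-08). The lowest fitted value of the list belonged to DUSP4, which was at 0.864, 1.10 and 0.461 CPM at 1 h and at 0, 0.0651 and 0.0797 CPM at 6 h, below the limit of detection, and its fitted fold change varies with the prior count used and lay between -4.77 and -3.17 on the log2 scale with 1 library left out. ZFP36L2, an mRNA decay factor, went the other way, from 19.7, 26.7 and 25.8 CPM to 34.7, 34.8 and 40.9 CPM (log2 fold change 0.62, SE 0.13, edgeR adjusted p = 0.00162).

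**Figure D2:**
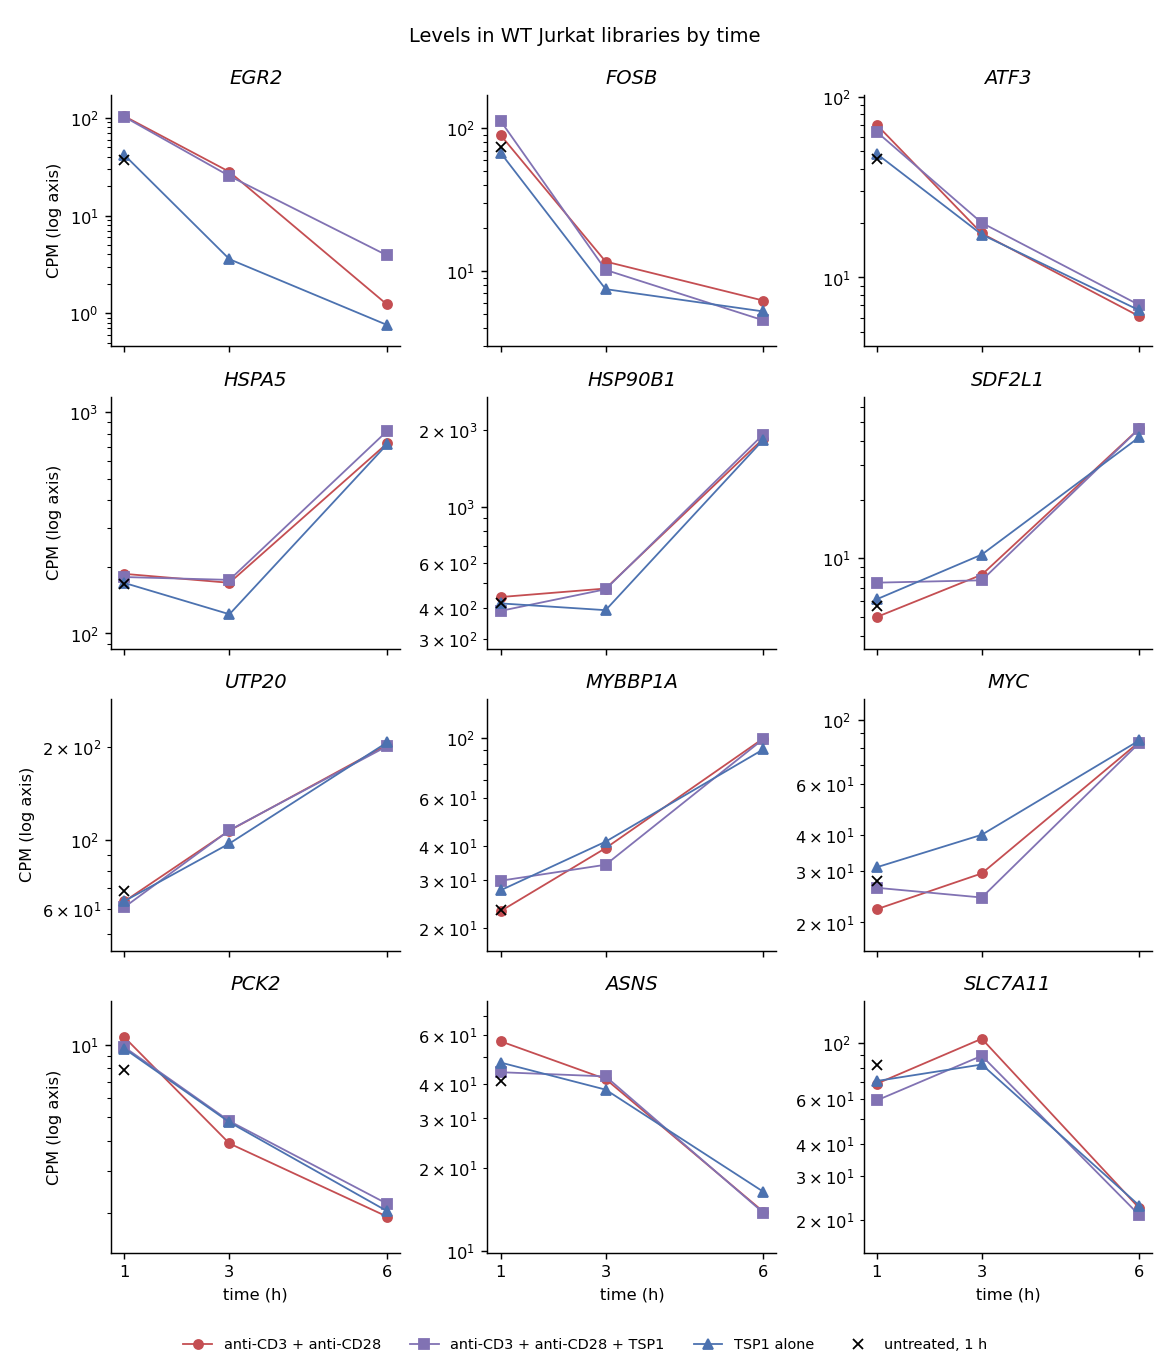
CPM on log axes against time in hours for 12 genes in the WT libraries, 1 line per treatment, with the untreated library of 1 h as a cross. EGR2, FOSB and ATF3 fall at each step in every treatment, HSPA5 lies below its 1 h level at 3 h and far above it at 6 h, and UTP20 rises at each step.

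NF-κB feedback genes and surface markers of activation were also compared. Of 16 listed NF-κB targets and regulators, 11 were lower and 0 higher, against the same shares. BIRC3, an inhibitor of apoptosis, fell from 85.3, 80.0 and 85.8 CPM to 38.5, 38.6 and 36.9 CPM (log2 fold change -1.14, SE 0.084, edgeR adjusted p = 1.04e-07), and NFKBID, an atypical member of the IκB family, from 16.6, 21.3 and 10.9 CPM to 6.83, 8.08 and 4.66 CPM (log2 fold change -1.31, SE 0.14, edgeR adjusted p = 2.85e-06). NFKBIA, the inhibitor IκBα, fell from 42.1, 43.9 and 48.3 CPM to 21.1, 19.6 and 20.3 CPM (log2 fold change -1.14, SE 0.10, edgeR adjusted p = 6.47e-07). TNFAIP3 fell from 111, 112 and 121 CPM to 73.7, 75.3 and 69.2 CPM (log2 fold change -0.66, SE 0.072, edgeR adjusted p = 4.03e-06), and was already at 77.6, 78.3 and 67.8 CPM at 3 h. Of 17 tested T cell activation genes, 4 were higher and 6 lower, against 23.4% and 22.2% of all genes. CD69, an early activation marker, was at 456, 359 and 113 CPM at 1 h and at 34.4, 56.0 and 20.2 CPM at 6 h (log2 fold change -2.94, SE 0.29, edgeR adjusted p = 1.48e-06), with 104 CPM in untreated cells of 1 h. TNFRSF4, which encodes the costimulatory receptor OX40, rose from 0.384, 0.789 and 0.545 CPM to 8.24, 8.43 and 9.53 CPM (log2 fold change 3.91, SE 0.34, edgeR adjusted p = 5.08e-07). CD6, a scavenger receptor family protein of T cells, rose from 15.5, 15.2 and 15.96 CPM to 34.1, 42.7 and 31.6 CPM (log2 fold change 1.20, SE 0.10, edgeR adjusted p = 3.68e-07), and CD83 fell from 54.5, 48.9 and 48.3 CPM to 25.5, 26.3 and 23.0 CPM (log2 fold change -1.02, SE 0.086, edgeR adjusted p = 3.47e-07). IL2 and 6 other listed genes did not pass the low-count filter.

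The chaperones of the ER rose as a group. HSPA5 (chr9:125234853-125241382, minus strand) encodes BiP, the main Hsp70 of the ER. It was at 186, 179.9 and 169 CPM at 1 h, at 169, 175 and 122 CPM at 3 h and at 722, 821 and 715 CPM at 6 h. Each library of 3 h lay below its 1 h partner, and all 3 libraries of 6 h lay far above every library of the earlier times. The increase from 1 h to 6 h was 4.22-fold (log2 fold change 2.08, SE 0.10, edgeR adjusted p = 3.25e-09), and untreated cells of 1 h held 167 CPM. HSP90B1 (chr12:103930107-103953931, plus strand), the Hsp90 of the ER, went from 440.0, 388 and 415 CPM to 1853, 1925 and 1832 CPM (log2 fold change 2.17, SE 0.10, edgeR adjusted p = 2.55e-09), with 3 h values of 475, 472 and 391 CPM. SDF2L1 (chr22:21642302-21644299, plus strand), a cofactor of BiP, rose from 4.99, 7.49 and 6.16 CPM to 46.5, 46.4 and 41.9 CPM (log2 fold change 2.86, SE 0.19, edgeR adjusted p = 3.62e-08). MANF, a secreted ER stress protein, rose from 41.0, 41.5 and 39.5 CPM to 182, 192 and 182 CPM (log2 fold change 2.19, SE 0.095, edgeR adjusted p = 1.32e-09), and PDIA4, a disulfide isomerase, from 81.1, 78.8 and 70.8 CPM to 289.9, 290.0 and 274 CPM (log2 fold change 1.89, SE 0.089, edgeR adjusted p = 2.49e-09).

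Of 20 genes of the unfolded protein response, 15 were higher and 3 lower at 6 h, against 23.4% and 22.2% of all genes, with a median log2 fold change of 1.20, and 12 of the 20 were higher by over 2-fold, against 5.79% of all genes. Within the pairs the medians were 1.16, 1.26 and 1.20. At 3 h, 4 were called higher and 6 lower than at 1 h, against 14.9% and 15.3% of all genes. The summed level of the 20 genes was 3160 to 3410 CPM at 1 h and 7260 to 7560 CPM at 6 h. The 3 genes that fell were EDEM1, HERPUD1 and ERN1, of which the latter encodes the sensor IRE1α. EDEM1, a factor of ER-associated degradation, went from 558, 541 and 593 CPM to 253, 256 and 260.1 CPM (log2 fold change -1.14, SE 0.069, edgeR adjusted p = 1.84e-08). HERPUD1, also of the degradation pathway, and ERN1 had log2 fold changes of -0.38 and -1.12. XBP1, the transcription factor whose mRNA IRE1α splices, had a log2 fold change of 1.24 with 1 h values of 78.3, 74.4 and 74.5 CPM and 6 h values of 178, 182 and 177 CPM, and gene-level counts do not separate its spliced and unspliced forms. HERPUD1, ERN1 and XBP1 were named after their values were seen.

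The ER stress response element was searched as CCAAT followed after 9 bases by CCACG, on both strands of the same promoter windows. It was found in 7 of the 19 genes of the list with a window (CALR, CANX, CRELD2, HSP90B1, HSPA5, PDIA6 and XBP1), all of which were called higher, and in 19 of 11339 tested genes with a window, a share of 0.168%. The sequences of 4 of these genes are shown because they rose and carried the element, and because its orientation differs among them. The windows of the other 12 genes, SDF2L1, MANF and PDIA4 among them, held no match. Both parts of the element are in capitals, and each sequence is written 5′ to 3′ on the strand of its gene. The stretches lie at chr9:125241371-125241429 (minus strand), chr12:103930196-103930254 and chr12:103930301-103930359 (plus strand), chr19:12938364-12938422 (plus strand) and chr22:28800583-28800641 (minus strand) of GRCh38.p14. The HSP90B1 promoter held the element in both orientations. CALR, a lectin chaperone that was named for its motif, was at 407, 366 and 347 CPM at 1 h and 1016, 1011 and 968 CPM at 6 h (log2 fold change 1.42, SE 0.098, edgeR adjusted p = 5.35e-08). CRELD2, named likewise, was at 10.2, 15.95 and 12.3 CPM at 1 h and 40.0, 43.7 and 40.1 CPM at 6 h (log2 fold change 1.70, SE 0.13, edgeR adjusted p = 1.04e-07).
HSPA5: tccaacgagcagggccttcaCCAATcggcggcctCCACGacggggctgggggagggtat
HSP90B1 distal: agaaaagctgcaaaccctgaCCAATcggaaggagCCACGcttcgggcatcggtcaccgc
HSP90B1 proximal: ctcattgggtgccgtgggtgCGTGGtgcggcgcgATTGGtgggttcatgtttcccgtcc
CALR: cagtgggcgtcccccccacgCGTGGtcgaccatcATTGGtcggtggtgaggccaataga
XBP1: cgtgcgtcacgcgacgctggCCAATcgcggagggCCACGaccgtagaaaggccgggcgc

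The genes of the ATF4 program moved opposite to the ER chaperones. Of 27 tested, 22 were lower and 1 higher at 6 h, against 22.2% and 23.4% of all genes, with a median log2 fold change of -1.05, and 14 of the 27 were lower by over 2-fold, against 6.26% of all genes. PCK2 (chr14:24094053-24110598, plus strand), the mitochondrial phosphoenolpyruvate carboxykinase, was at 10.8, 9.82 and 9.68 CPM at 1 h, at 3.89, 4.83 and 4.77 CPM at 3 h and at 1.93, 2.18 and 2.03 CPM at 6 h (log2 fold change -2.30, SE 0.13, edgeR adjusted p = 9.38e-09). ASNS, asparagine synthetase, fell from 56.8, 43.997 and 47.7 CPM to 13.9, 13.8 and 16.4 CPM (log2 fold change -1.75, SE 0.10, edgeR adjusted p = 1.49e-08). SLC7A11 (chr4:138164097-138242349, minus strand), the cystine importer, was at 69.1, 59.4 and 70.8 CPM at 1 h, at 104, 89.1 and 82.3 CPM at 3 h and at 22.3, 20.9 and 22.8 CPM at 6 h (log2 fold change -1.59, SE 0.09, edgeR adjusted p = 9.5e-09). PSAT1, of serine synthesis, fell from 166, 158 and 177 CPM to 68.4, 71.2 and 74.5 CPM (log2 fold change -1.23, SE 0.065, edgeR adjusted p = 5.66e-09), and STC2, a secreted glycoprotein, from 17.9, 18.2 and 19.6 CPM to 8.46, 8.82 and 9.53 CPM (log2 fold change -1.05, SE 0.082, edgeR adjusted p = 1.63e-07). GPT2, a mitochondrial alanine aminotransferase outside the list, fell from 14.5, 14.9 and 14.6 CPM to 5.30, 5.24 and 4.94 CPM (log2 fold change -1.50, SE 0.094, edgeR adjusted p = 2.22e-08). The libraries of the 2 times did not overlap for 24 of the 27 members, against 58.0% of all genes. The member that rose was PSPH, the last enzyme of serine synthesis, from 15.1, 12.1 and 16.001 CPM to 22.2, 22.2 and 20.96 CPM (log2 fold change 0.61, SE 0.12, edgeR adjusted p = 0.0008).

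The aminoacyl-tRNA synthetases, which charge tRNAs and include several ATF4 targets, had members called in both directions. Of 20 tested, 7 were higher and 10 lower, against 23.4% and 22.2% of all genes. WARS1, for tryptophan, rose from 30.5, 29.7 and 29.6 CPM to 74.2, 86.0 and 76.4 CPM (log2 fold change 1.40, SE 0.069, edgeR adjusted p = 3.31e-09). The subunits of the phenylalanine enzyme rose together, FARSA with a log2 fold change of 1.35 (edgeR adjusted p = 1.64e-08) and FARSB with 0.98 (edgeR adjusted p = 2.95e-08), and VARS1, for valine, rose by 1.24 (edgeR adjusted p = 2.76e-08). AARS1, for alanine, fell from 280.0, 251 and 257 CPM to 126, 124 and 120.1 CPM (log2 fold change -1.09, SE 0.073, edgeR adjusted p = 4.15e-08). CARS1, for cysteine, which was named after its values were seen, fell from 124, 122 and 122 CPM to 57.9, 61.0 and 57.6 CPM (log2 fold change -1.06, SE 0.071, edgeR adjusted p = 4.23e-08). The composite element of C/EBP and ATF factors was searched as TGATGNAA on both strands. It was found in 7 of 16 synthetases with a window (AARS1, CARS1, GARS1, IARS1, MARS1, NARS1 and TARS1), of which 6 were called lower and 0 higher, and in 6 of 23 genes of the ATF4 list with a window, of which 5 were called lower and 0 higher. The share over all tested genes with a window was 2.85%. The stretches of 3 genes that fell are shown with the element in capitals, at chr7:97872449-97872496 (minus strand), chr15:40953242-40953289 (plus strand) and chr16:70289666-70289713 (minus strand) of GRCh38.p14. CHAC1, which degrades glutathione and was named for its motif, went from 14.5, 18.3 and 13.7 CPM to 4.56, 4.69 and 4.70 CPM (log2 fold change -1.73, SE 0.17, edgeR adjusted p = 1.47e-06).
ASNS: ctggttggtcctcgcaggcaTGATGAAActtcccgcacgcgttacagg
CHAC1: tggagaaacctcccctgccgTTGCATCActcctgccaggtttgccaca
AARS1: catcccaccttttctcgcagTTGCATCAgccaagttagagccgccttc

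Ribosome biogenesis genes rose as a group. Of 40 tested, 36 were higher and 0 lower, against 23.4% and 22.2% of all genes, with a median log2 fold change of 0.81 and pair medians of 0.84, 0.91 and 0.85. UTP20, of the small subunit processome, was at 63.6, 61.0 and 63.8 CPM at 1 h, at 108, 108 and 97.8 CPM at 3 h and at 203, 201 and 207 CPM at 6 h (log2 fold change 1.70, SE 0.069, edgeR adjusted p = 9.53e-10). MYBBP1A, a nucleolar protein, rose from 23.0, 29.8 and 27.5 CPM to 99.4, 98.8 and 90.6 CPM (log2 fold change 1.85, SE 0.097, edgeR adjusted p = 5.05e-09). RRP12, of ribosome export, rose from 28.8, 31.6 and 26.4 CPM to 87.4, 88.8 and 82.9 CPM (log2 fold change 1.58, SE 0.078, edgeR adjusted p = 3.31e-09), and POLR1B, the second largest subunit of RNA polymerase I, from 30.1, 29.9 and 33.0 CPM to 74.5, 69.1 and 77.2 CPM (log2 fold change 1.25, SE 0.06, edgeR adjusted p = 2.77e-09). Of the 40, 12 were called higher than 1 h at 3 h and 1 lower, against 14.9% and 15.3% of all genes. Of 50 cytosolic ribosomal protein genes, 0 were higher and 12 were lower, against 23.4% and 22.2% of all genes. Their median was -0.20, and -0.051 with quantile normalization. The ribosomal proteins have many processed copies in the genome, between which reads can be split.

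MYC was at 22.2, 26.3 and 31.0 CPM at 1 h, at 29.5, 24.4 and 40.1 CPM at 3 h and at 83.8, 83.1 and 84.8 CPM at 6 h, a 3.19-fold increase (log2 fold change 1.68, SE 0.11, edgeR adjusted p = 4.15e-08). The 3 libraries of 6 h lay close together and above every library of 1 h and 3 h. Of the 12 tested genes of the MYC network, 3 were higher and 3 lower, against 23.4% and 22.2% of all genes. MXD1 and MXI1, which compete with MYC for its partner MAX, fell from 32.5, 34.7 and 29.7 CPM to 10.2, 9.57 and 9.49 CPM (log2 fold change -1.73, SE 0.13, edgeR adjusted p = 1.24e-07) and from 22.4, 18.1 and 20.8 CPM to 8.89, 9.77 and 10.1 CPM (log2 fold change -1.08, SE 0.13, edgeR adjusted p = 1.18e-05). The E-box CACGTG, to which MYC and other factors can bind, was present in 17 of 33 ribosome biogenesis promoters with a window. The share over all tested genes with a window was 12.2%. Of the 17 genes with the motif, 15 were called higher, against 36 of 40 in the whole list, and a role of MYC was not tested. Proteasome subunits, which degrade ubiquitinated proteins, also rose, with 27 of 31 higher and 0 lower but a median log2 fold change of only 0.38. PSMD1 went from 111, 97.7 and 106 CPM to 188, 181 and 195 CPM (log2 fold change 0.85, SE 0.071, edgeR adjusted p = 3.4e-07), and PSMA3 from 78.2, 68.6 and 65.0 CPM to 123, 119 and 136 CPM (log2 fold change 0.84, SE 0.10, edgeR adjusted p = 1.02e-05).

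**Figure D3:**
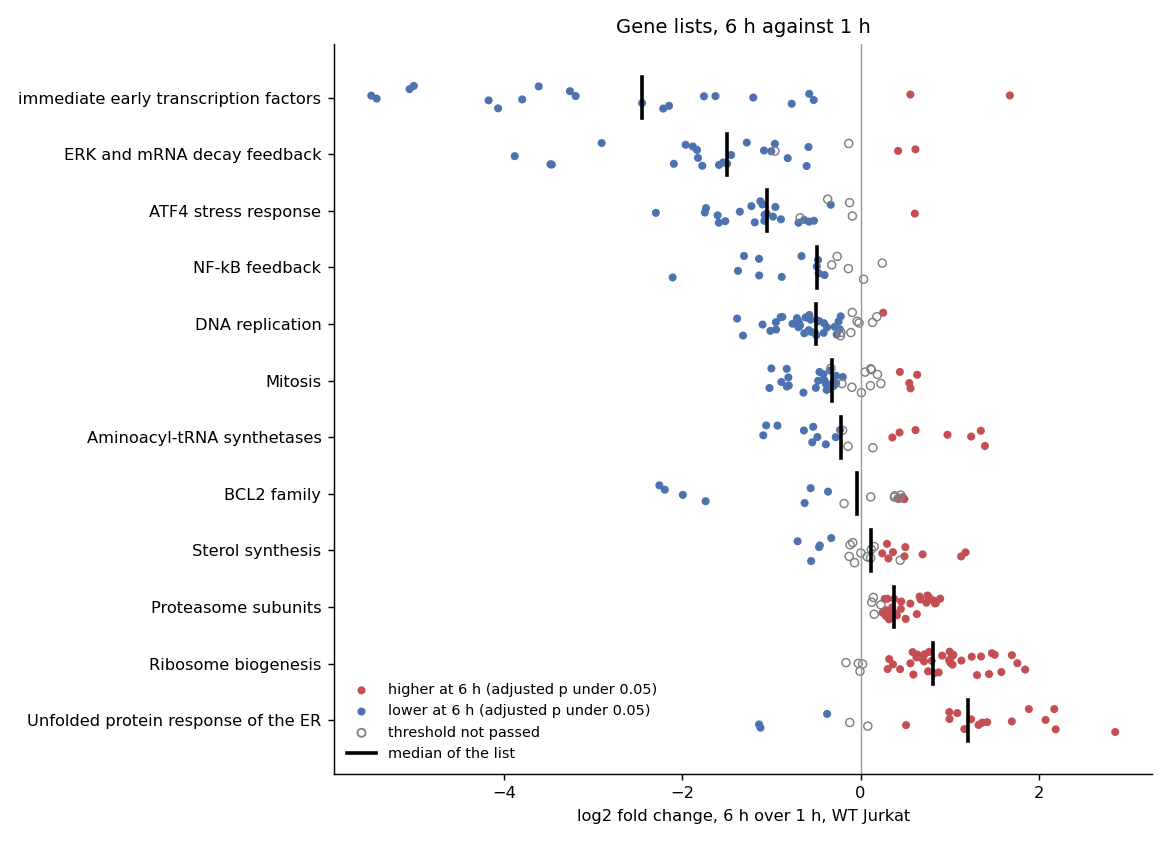
Log2 fold change of 6 h over 1 h in WT cells for the tested genes of 12 lists, filled where the adjusted p was under 0.05 and open otherwise, with the list median as a black bar. The median lies at -2.45 for immediate early transcription factors, at -1.05 for the ATF4 list, at 0.81 for ribosome biogenesis and at 1.20 for the unfolded protein response.

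Genes of DNA replication and mitosis were mostly lower at 6 h. Of 40 DNA replication genes, 31 were lower and 1 higher, against 22.2% and 23.4% of all genes, with a median log2 fold change of -0.50. PRIM1, a primase subunit, fell from 97.0, 76.6 and 90.1 CPM to 37.5, 33.2 and 34.7 CPM (log2 fold change -1.32, SE 0.099, edgeR adjusted p = 1.14e-07), and E2F2, a transcription factor of S phase entry, from 151, 152 and 143 CPM to 57.6, 60.3 and 52.7 CPM (log2 fold change -1.39, SE 0.092, edgeR adjusted p = 3.88e-08). TYMS, thymidylate synthase, fell from 279.5, 258 and 273 CPM to 137, 141 and 141 CPM (log2 fold change -0.95, SE 0.08, edgeR adjusted p = 3.3e-07) and POLD3 had a log2 fold change of -0.90 (edgeR adjusted p = 2.27e-07). Of 38 mitosis genes, 24 were lower and 4 higher, against the same shares, with a median of -0.32. KIF23, a motor of cytokinesis, fell from 302, 261 and 259 CPM to 137, 132 and 135 CPM (log2 fold change -1.02, SE 0.076, edgeR adjusted p = 1.07e-07), and KIF2C and TTK, which act at kinetochores, had log2 fold changes of -1.001 and -0.81 (edgeR adjusted p = 1.79e-06 and 1.87e-06). ANLN, a scaffold of the contractile ring, had a log2 fold change of -0.64 (edgeR adjusted p = 2.65e-06). CDC20, the activator of the anaphase-promoting complex, rose from 142, 137 and 118 CPM to 205, 205 and 207 CPM (log2 fold change 0.64, SE 0.087, edgeR adjusted p = 3.16e-05). Of 51 replication-dependent histones, 19 were higher and 1 lower at 6 h, against 23.4% and 22.2% of all genes. Their median was 0.31 and became 0.161 without the 1 h library of CD3+CD28. At 3 h, 49 of the 51 were called higher than at 1 h and 0 lower, against 14.9% and 15.3% of all genes. The median of these histones at 3 h was 0.772, above that at 6 h. Most of their mRNAs lack poly(A) tails, and nearly identical copies share reads. In bulk RNA, fewer cells in a phase and less RNA per cell cannot be told apart.

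Regulators of G1 and of survival were among the genes with large decreases. CDKN1A, the inhibitor p21, fell from 36.1, 38.8 and 15.6 CPM to 3.37, 4.59 and 2.99 CPM (log2 fold change -2.98, SE 0.20, edgeR adjusted p = 3.88e-08). At 1 h and 3 h it was higher in both activated libraries than with TSP1 alone, and untreated cells of 1 h held 12.4 CPM. CCNG1, a p53 target, fell from 447, 416 and 449.8 CPM to 133, 133 and 141 CPM (log2 fold change -1.69, SE 0.12, edgeR adjusted p = 5.05e-08), CCNE1, cyclin E1, from 14.3, 15.99 and 12.7 CPM to 5.04, 5.54 and 4.86 CPM (log2 fold change -1.47, SE 0.13, edgeR adjusted p = 4.78e-07), and CDK6 rose from 484, 461 and 519 CPM to 1012, 1013 and 1037 CPM (log2 fold change 1.07, SE 0.074, edgeR adjusted p = 5.87e-08). In the BCL2 family 3 of 16 were higher and 7 lower, against 23.4% and 22.2% of all genes. MCL1, an antiapoptotic protein of short half-life, fell from 1353, 1270 and 917 CPM to 249.7, 268 and 239 CPM (log2 fold change -2.20, SE 0.14, edgeR adjusted p = 2.17e-08), with 501, 486 and 263 CPM at 3 h and 851 CPM in untreated cells of 1 h. BCL2 fell from 84.9, 79.2 and 77.3 CPM to 47.5, 55.7 and 53.0 CPM (log2 fold change -0.63, SE 0.077, edgeR adjusted p = 1.28e-05). The proapoptotic BBC3 and HRK, both at low levels, fell from 3.55, 5.96 and 4.36 CPM to 1.183, 0.749 and 0.957 CPM (log2 fold change -2.26, SE 0.31, edgeR adjusted p = 3.43e-05) and from 1.58, 1.53 and 1.42 CPM to 0.263, 0.586 and 0.478 CPM (log2 fold change -1.74, SE 0.34, edgeR adjusted p = 0.000748).

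Of 25 genes of glycolysis and glucose uptake, 7 were higher and 11 lower, against 23.4% and 22.2% of all genes. PDK1, which restrains pyruvate dehydrogenase, fell from 123, 109 and 116 CPM to 35.97, 35.6 and 36.9 CPM (log2 fold change -1.68, SE 0.068, edgeR adjusted p = 9.53e-10). The glucose transporter gene SLC2A3 fell from 120.1, 101 and 89.9 CPM to 25.0, 26.0 and 23.7 CPM (log2 fold change -2.05, SE 0.11, edgeR adjusted p = 4.91e-09), PFKFB3 from 102, 103 and 90.5 CPM to 34.1, 33.1 and 32.8 CPM (log2 fold change -1.56, SE 0.065, edgeR adjusted p = 9.53e-10) and the enolase gene ENO2 from 216, 186 and 183 CPM to 76.8, 73.7 and 73.7 CPM (log2 fold change -1.38, SE 0.081, edgeR adjusted p = 1.31e-08). Of 24 tested sterol synthesis genes, 9 were higher and 5 lower, against the same shares. PMVK had the highest value of the list, with a log2 fold change of 1.179 (edgeR adjusted p = 2.58e-06).

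Among the largest increases were also genes of varied function. PI16 (chr6:36948263-36964837, plus strand), a peptidase inhibitor, rose from 2.30, 3.11 and 3.23 CPM at 1 h through 5.59, 5.42 and 8.60 CPM at 3 h to 35.0, 35.6 and 35.9 CPM at 6 h (log2 fold change 3.63, SE 0.16, edgeR adjusted p = 1.42e-09), with 3.20 CPM in untreated cells of 1 h. TNFRSF8, which encodes the activation receptor CD30, rose from 3.17, 2.94 and 2.93 CPM to 17.04, 18.4 and 15.1 CPM (log2 fold change 2.48, SE 0.10, edgeR adjusted p = 9.53e-10). SH3TC1 rose from 22.9, 35.8 and 34.1 CPM to 177, 191 and 205 CPM (log2 fold change 2.64, SE 0.14, edgeR adjusted p = 6.09e-09) and SUSD4, a regulator of complement, from 8.06, 8.98 and 8.46 CPM to 50.5, 48.4 and 44.5 CPM (log2 fold change 2.49, SE 0.11, edgeR adjusted p = 1.14e-09). MRM1, a mitochondrial rRNA methyltransferase, PYCR3, of proline synthesis, RGL4, the noncoding RNA FAM30A, ARMC6 and DOCK5 had log2 fold changes of 2.58, 2.54, 2.39, 2.39, 2.29 and 2.28. The 3 libraries of 6 h lay above the 3 of 1 h for each of these genes. Among the largest decreases, SNORD3C, a U3 small nucleolar RNA, went from 99.5, 309.9 and 183 CPM to 7.54, 37.4 and 9.88 CPM (log2 fold change -3.46, SE 0.74, edgeR adjusted p = 0.00145). It has near-identical copies between which reads can be split, and its value is uncertain. Its log2 fold change was -4.62 without the 6 h library of CD3+CD28+TSP1, and -3.01 at the other end of the range with 1 library left out.

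The cells kept a T cell expression profile at both times. All 15 genes of T cell identity were tested, and their summed level was 2580 to 2930 CPM at 1 h and 3120 to 3240 CPM at 6 h. TRBC2, a T cell receptor constant region, rose from 82.5, 84.2 and 73.0 CPM to 227, 226 and 210.1 CPM (log2 fold change 1.47, SE 0.096, edgeR adjusted p = 3.6e-08), CD247, the receptor zeta chain, from 64.3, 61.8 and 64.9 CPM to 123, 132 and 127 CPM (log2 fold change 1.00, SE 0.072, edgeR adjusted p = 8.29e-08), and CD28 from 26.9, 24.6 and 27.0 CPM to 54.9, 61.9 and 53.4 CPM (log2 fold change 1.11, SE 0.10, edgeR adjusted p = 9.92e-07). CD4 fell from 24.3, 21.1 and 22.6 CPM to 6.35, 5.83 and 6.54 CPM (log2 fold change -1.86, SE 0.11, edgeR adjusted p = 1.42e-08). Reads of TRBC2 and its near-identical partner TRBC1 can be split by the counting. Markers of other cell types had far lower summed levels than the T cell identity list, and those of B cells were the highest among them. The summed level was 38.4 to 43.6 CPM at 1 h and 46.6 to 55.6 CPM at 6 h for 6 B cell genes, 5.70 to 6.97 CPM and 0.964 to 1.82 CPM for 7 myeloid genes, 1.42 to 1.63 CPM and 1.51 to 2.47 CPM for 5 epithelial genes, and 3.10 to 7.89 CPM and 1.88 to 4.50 CPM for 6 fibroblast genes. MS4A1, PAX5, SPI1, CSF1R, LYZ, EPCAM and CDH1 did not pass the low-count filter. CD47 itself was at 359.6, 330.1 and 371 CPM at 1 h and 311, 292 and 327 CPM at 6 h (log2 fold change -0.19, edgeR adjusted p = 0.0358), a call that was lost under 13 of 28 other analyses with adjusted p-values from 0.0507 to 0.126. In the CD47- line it was at 165, 154 and 165 CPM at 1 h, below the WT libraries but detected.

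The same contrast was made in the CD47- line JinB8. No library enters both contrasts, which come from 1 model. In CD47- cells, 4348 genes (23.8%) were higher and 4486 (24.6%) lower at 6 h. The 2890 genes called higher in both lines were 67.7% of the WT list and 66.5% of the CD47- list, and the 2738 called lower in both were 67.6% and 61.0%. Across all 18263 genes, which are not independent replicates, the log2 fold changes of the lines had a Pearson r of 0.534 and a Spearman rho of 0.612. The difference between the lines in the change from 1 h to 6 h was tested as an interaction, which passed for 2579 genes (14.1%). This count fell to 1349 without the WT library of CD3+CD28+TSP1 at 6 h, 1421 without that of CD3+CD28+TSP1 at 1 h, and 1532, 1715 and 1443 without the CD47- libraries of CD3+CD28 at 1 h, CD3+CD28 at 6 h and TSP1 at 6 h. It rose to 4266 without the CD47- library of CD3+CD28+TSP1 at 3 h, which had the fewest counts, 16107921.

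For the ER chaperones the lines differed. In CD47- cells 3 of the 20 unfolded protein response genes were higher and 8 lower, against 23.8% and 24.6% of all genes, with a median of -0.10, and the interaction passed for 16 of the 20, against 14.1% of all genes, each time with a lower change in CD47- than in WT cells. HSPA5 was at 298, 296 and 274 CPM at 1 h and 242, 255 and 245 CPM at 6 h in CD47- cells, so the change in CD47- minus that in WT was -2.30 (SE 0.14, edgeR adjusted p = 2.7e-07) on the log2 scale. The 3 values of HSPA5 at 1 h in CD47- cells lay above those of WT cells. HSP90B1 went from 604, 569 and 561 CPM to 432, 406 and 441 CPM, a difference of -2.61 (SE 0.14, edgeR adjusted p = 8.49e-08). In the ATF4 list the difference had the opposite sign, with 14 of 27 higher and 9 lower in CD47- cells and the interaction passing for 22, of which 19 had the higher change in CD47- cells. SLC7A11, which fell in WT cells, went from 66.5, 62.3 and 64.5 CPM to 205, 186 and 237 CPM in CD47- cells, a difference of 3.28 (SE 0.12, edgeR adjusted p = 3.71e-09). STC2, GPT2 and PSAT1 likewise rose in CD47- cells, by 1.21, 0.99 and 0.54 on the log2 scale.

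**Figure D4:**
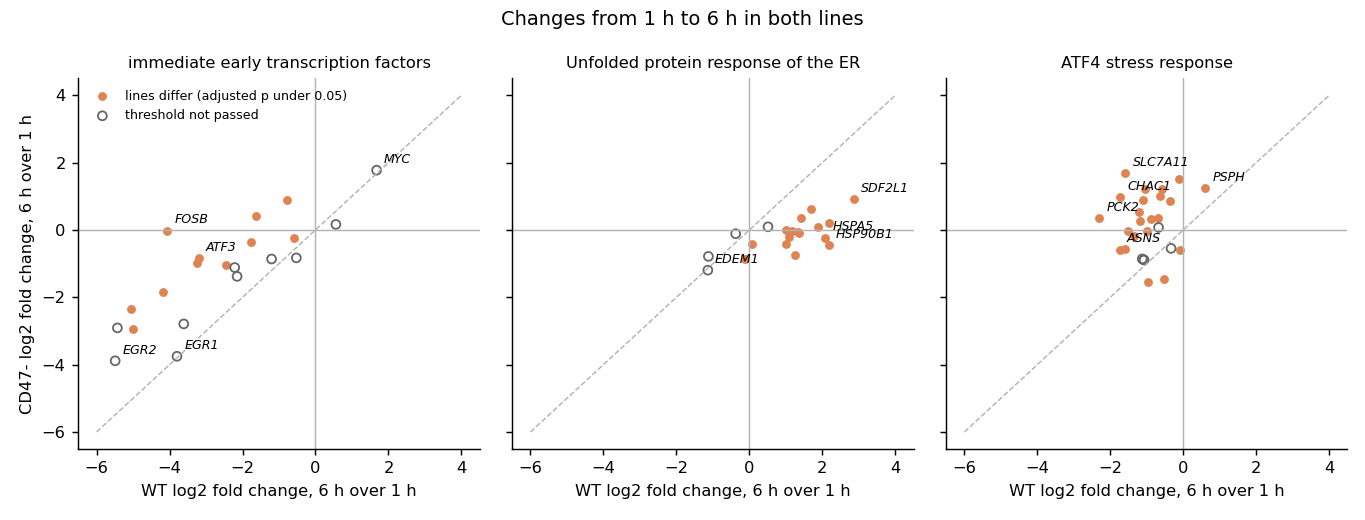
Log2 fold change of 6 h over 1 h in CD47- cells against that in WT cells for 3 lists, filled where the interaction had an adjusted p under 0.05, with equal change on the dashed line. HSPA5 and HSP90B1 lie at 2.08 and 2.17 in WT cells and below 0 in CD47- cells, and SLC7A11 at -1.59 and 1.69.

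Of the 21 immediate early genes, 13 were lower and 2 higher in CD47- cells, against 24.6% and 23.8% of all genes, with a median of -0.98. The interaction passed for 11 of the 21, against 14.1% of all genes, each time with a higher change in CD47- cells. FOSB was at 15.6, 15.1 and 12.3 CPM at 1 h and 14.4, 14.4 and 13.4 CPM at 6 h in CD47- cells, where its 1 h level was already far below that of WT cells, and the difference of the changes was 4.05 (SE 0.23, edgeR adjusted p = 1.12e-07). For EGR1 the log2 fold change was -3.75 in CD47- and -3.80 in WT cells, with a difference of 0.044 (SE 0.42, edgeR adjusted p = 0.962). Ribosome biogenesis genes rose in both lines, with a median of 1.11 in CD47- cells, and the interaction passed for 11 of 40, each time with a higher change in CD47- cells. For mitosis genes it passed for 33 of 38, each time with a lower change in CD47- cells, where 35 were called lower and the median was -1.06. MYC rose by 1.77 in CD47- cells, from a 1 h mean of 51.7 ± 3.59 CPM to a 6 h mean of 177 ± 3.81 CPM (SD, n = 3 libraries).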

How the data were processed

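Per the labels and the study's methods, the authors used Cutadapt 1.18 for trimming, STAR 2.4.2a for alignment to GRCh38 and RSEM 1.3.3 with a GENCODE annotation for counting. The strand setting is not given in the sources used here. The deposited values are RSEM expected counts for 60719 genes, not normalized, and they were rounded for testing. The isoform table, and 2 columns of the gene table that match no sample, were not used. The authors' ComBat and quantile steps were not repeated as the main analysis.

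Genes were filtered by filterByExpr by line and time (minimum count 10, minimum total 15). In edgeR 4.0.16 (limma 3.58.1, DESeq2 1.42.0, R 4.3.3), 18 libraries without the untreated ones were scaled by TMM and fitted with 1 coefficient per line and treatment, which pairs the times by treatment, and terms for 3 h and 6 h in each line, leaving 8 residual degrees of freedom. The quasi-likelihood test of the 6 h term in WT, and of its difference between lines, was adjusted by Benjamini-Hochberg at 0.05. An exact sign-flip test of 3 pairs cannot go below 0.25 and was not used. The untreated library gives levels only. The procedure was tested on simulated data. Within a time, WT libraries differed by more than counting noise. The median variance ratio of 2 libraries was 5.8 to 11.2 at 1 h and 2.62 to 3.18 at 6 h. Such libraries are different treatments, so the ratio includes treatment effects.

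The genes named include the 12 largest increases and the 12 largest decreases among called genes. For these, a mean log2 CPM of 3 or more and the same direction in 3 pairs were required. Also named are the 4 genes of smallest p in the interaction, and CD47, MYC, MCL1 and HSPA5. From each list, the 4 or fewer genes of smallest p and the lowest and highest gene could be named. Not all of these list genes are named, and the lowest or highest gene of several lists is left out. Genes added after their values were seen are marked, and some items are not reported here. The comparison, gene lists and rule were chosen with earlier results of these data known, so no list is independent support. Positions are those of GENCODE 44 (GRCh38), and promoter windows those of RefSeq (GRCh38.p14), in which motifs were searched separately and may overlap. The alternatives tried were quantile-normalized limma voom, DESeq2, relative log expression and upper-quartile factors, other filters (none, or 1 CPM in every library), WT libraries alone, no pairing, and each library left out in turn.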

Additional observations from a re-analysis of the deposited data

Results flagged for a closer look

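Of the 106 genes named in the text with a fold change, 62 stood out because the test of the difference between the lines in the change from 1 h to 6 h passed (edgeR interaction, adjusted p from 3.71e-09 to 0.0333). The test passed for 14.1% of all genes, and the named genes were partly chosen for the smallest p of this test and for large changes in WT cells, so neither their share nor their directions describe other genes. Values are the log2 change in CD47- minus that in WT cells, and they were above 0 for 39 genes and below 0 for 23. How many genes pass this test depended on single libraries, as described for the interaction count. Among the immediate early and feedback genes, the difference was above 0 for FOSB, NR4A1, ATF3, NR4A3, FOS, SPRY4, CSRNP1, EGR3, DUSP5, FOSL2, PPP1R15A, DUSP10, NFKBIA and DUSP4, with values of 4.05, 2.72, 2.35, 2.34, 2.28, 2.18, 2.12, 2.07, 1.80, 1.42, 0.81, 0.72, 0.51 and 4.05 in this order. Among amino acid and ATF4 program genes, the difference was above 0 for SLC7A11, CHAC1, PCK2, GPT2, STC2, PSAT1, CARS1, ASNS and PSPH, with values of 3.28, 2.71, 2.65, 2.50, 2.26, 1.76, 1.20, 1.16 and 0.64 in this order. Among cell cycle and survival regulators, the difference was above 0 for HRK, CDKN1A, BBC3, CCNE1, MCL1 and BTG1, with values of 2.52, 2.27, 1.93, 1.16, 0.90 and 0.55 in this order. Among ribosome biogenesis genes, the difference was above 0 for RRP12, MYBBP1A and POLR1B, with values of 0.49, 0.46 and 0.36 in this order. Among other genes, the difference was above 0 for CD55, CD83, SLC30A1, BCL6, MXD1, PFKFB3 and DNAJB1, with values of 1.17, 0.76, 0.73, 0.66, 0.65, 0.64 and 0.47 in this order. Among the genes of the unfolded protein response, it was below 0 for HSP90B1, HSPA5, MANF, XBP1, SDF2L1, PDIA4, CALR and CRELD2, with values of -2.61, -2.30, -1.99, -1.97, -1.95, -1.80, -1.07 and -1.07 in this order. Among mitosis genes, it was below 0 for CDC20, TTK, KIF2C and ANLN, with values of -0.76, -0.54, -0.52 and -0.39 in this order. Among T cell and signaling genes, it was below 0 for CD28, IL7R, ZFP36L2, TNFAIP3, CDK6 and TNFRSF8, with values of -1.24, -1.0, -0.95, -0.62, -0.63 and -0.51 in this order. Among the other genes with large increases in WT cells, it was below 0 for PI16, DOCK5, FAM30A, SH3TC1 and SUSD4, with values of -1.34, -1.02, -1.01, -0.79 and -0.78 in this order. For DUSP4 the levels were below the limit of detection in WT cells at 6 h, and its difference varies with the prior count used.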

How the results depend on the processing

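The call and direction of 104 of the 106 genes named with a fold change were the same under all 28 other analyses that gave them a value, and CD47 and KLF2 lost the call in some. The count of genes differing between 6 h and 1 h was 8322, lay between 7307 and 8913 under 10 other filters, scalings, tools and sets of libraries (8022 with DESeq2, 8578 with limma voom and quantile normalization, 8345 without a low-count filter), and between 6894 and 9585 when 1 of the 18 libraries was left out, with 6723 to 8319 of these genes also among the 8322. Without the replicate block, that is without the pairing by treatment, it was 8286 in the 18 libraries and 8827 in the 6 WT libraries alone, against 8883 with the pairing in those 6. The pairing comes from the treatments named in the labels. Between fits of the same libraries it changed the call of CD47 in the 18 libraries, where the adjusted p was 0.0358 with it and 0.0668 without it, and no other call of a named gene. The count of genes that differ between the lines was 2579, and it lay between 1349 and 4266 when 1 library was left out, and the cause was not tested. The median log2 fold change of metallothionein and zinc transport genes was 0.20 and became -0.02 with a stricter low-count filter, and with 1 library left out it lay between -0.0018, without the WT library of CD3+CD28+TSP1 at 1 h, and 0.211. The median of the heat shock chaperones was -0.098 and lay between -0.13 and 0.080, the latter without the same library. Across 4 other scalings the median over all genes lay between -0.0461 and 0.00203, and the share of calls that were higher between 47.3 and 50.8%. For 23 of 34 lists the median moved by more than the spread of the pairs under at least 1 other analysis. With the stricter filter EGR2, EGR3, DUSP4, TNFRSF4, BBC3, HRK, TSC22D3 and the myeloid and epithelial lists had no value. Precision was limited by 1 library per condition, and levels below 3 counts (0.0945 to 0.127 CPM with unadjusted totals) could not be sized.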

Other observations

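Of 20 nutrient and quiescence genes, 6 were higher and 9 lower, against 23.4% and 22.2% of all genes. IL7R, the IL-7 receptor, rose from 15.1, 15.5 and 18.8 CPM to 58.7, 61.4 and 59.0 CPM (log2 fold change 1.86, SE 0.087, edgeR adjusted p = 2.54e-09), whereas BTG1, an antiproliferative factor, fell from 79.0, 73.7 and 67.9 CPM to 23.7, 25.8 and 25.9 CPM (log2 fold change -1.54, SE 0.10, edgeR adjusted p = 4.35e-08) and CD55, a complement inhibitor, from 30.7, 27.3 and 20.6 CPM to 8.32, 7.85 and 8.05 CPM (log2 fold change -1.67, SE 0.17, edgeR adjusted p = 1.72e-06). Of 18 cytokine signaling genes, 1 was higher and 12 lower, against the same shares. JAK3, the kinase of the common gamma chain, rose from 9.65, 10.9 and 11.2 CPM to 27.3, 27.1 and 27.7 CPM (log2 fold change 1.37, SE 0.11, edgeR adjusted p = 1.55e-07), and BCL6 fell from 15.02, 13.4 and 10.8 CPM to 4.29, 4.75 and 3.51 CPM (log2 fold change -1.64, SE 0.12, edgeR adjusted p = 1.11e-07). Of 14 glucocorticoid response genes, tested because the medium holds hydrocortisone, 3 were higher and 9 lower, against the same shares. TSC22D3, which encodes GILZ, was at 3.50, 3.81 and 2.97 CPM at 1 h and 0.745, 1.07 and 1.43 CPM at 6 h (log2 fold change -1.66, SE 0.24, edgeR adjusted p = 6.49e-05), with 2.76 CPM in untreated cells of 1 h.

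SLC30A1, a zinc exporter, fell from 178, 187 and 204 CPM at 1 h through 116, 108 and 108 CPM at 3 h to 39.0, 40.1 and 46.1 CPM at 6 h (log2 fold change -2.19, SE 0.078, edgeR adjusted p = 4.73e-10). Of its list of 8 tested genes of metallothioneins and zinc transport, 2 were higher and 1 lower, against 23.4% and 22.2% of all genes. Of 25 heat shock chaperones, 11 were higher and 9 lower, against the same shares, and they include HSPA5 and HSP90B1. DNAJB1, the cytosolic Hsp40 partner of Hsp70, fell from 815, 829 and 728 CPM to 289, 285 and 285 CPM (log2 fold change -1.46, SE 0.085, edgeR adjusted p = 1.2e-08), opposite to the chaperones of the ER.

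Of the remaining lists, 9 of 20 NOTCH targets and T cell leukemia factors were higher and 3 lower, 5 of 26 interferon-stimulated genes were higher and 4 lower, 3 of 12 fatty acid synthesis genes were higher and 3 lower, 1 of 7 cholesterol efflux genes was higher and 2 lower, 2 of 14 genes of CDK inhibitors and G1 cyclins were higher and 6 lower, 4 of 16 nuclear noncoding RNAs were higher and 6 lower, and 0 of 13 genes of mitochondrial DNA were higher and 4 lower. Several of these shares are at or below the 23.4% and 22.2% of all genes.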
